A study of Mus musculus with 9 samples.

Results

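Imprinted genes were described here across the left ventricles of newborn mice after aortic constriction. The set was a fixed list of 34 mouse genes, chosen because imprinting is known for them; the rule uses no measured value, but it was drawn up with earlier results of these data known. Of the 34, 20 are known as paternally expressed, 13 as maternally expressed, and 1, Gnas, gives transcripts from either allele. The deposited table held 30 of them (17 paternally expressed, 12 maternally expressed and Gnas) among 16698 genes, and 27 (14, 12 and 1) passed the filter on low values, a log2 value above 0 in at least 3 libraries. Usp29, Phlda2, Magel2 and Peg13 were not analysed here.

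All mice were of the outbred ICR/CD1 strain, and all hearts were taken at postnatal day 14. A TAC operation (transverse aortic constriction) narrows the aorta and raises the pressure against which the left ventricle pumps. It was done at postnatal day 7 (day-7 TAC) or at postnatal day 1 (day-1 TAC), and sham-operated mice, for which the labels give no day of surgery, were the controls, with 3 libraries in each group. Since every heart was taken at day 14, the age at surgery and the time since surgery cannot be told apart. The question the design poses is how the ventricle answers to a load placed in the first days of life, when the mouse heart can still regenerate, and to a load placed after that stage.

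An imprinted gene is transcribed mainly from the allele of one parent, because DNA methylation set in the egg or the sperm marks an imprinting control region. Many paternally expressed genes, such as Igf2, Peg3 and Mest, promote fetal growth, and several maternally expressed genes, such as Igf2r, Grb10 and H19, restrain it. Many of them are highly expressed in the fetus and decline after birth, in the heart as in other organs. The libraries measured total RNA of each gene and not which allele it came from, so imprinting itself was not measured.

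Depth was 18538900 to 26529531 recovered reads per library. Values are log2 TMM-scaled values, on which 1 unit is a 2-fold change. Out of the log, the values of a library sum to 959281 to 1053663. The labelled tissue, heart, showed its markers: 10 cardiomyocyte markers summed, on the linear scale, to 134000 to 140000 in sham, 117000 to 126000 in day-7 TAC and 99700 to 128000 in day-1 TAC. The lowest mean correlation within a group was that of day-1 TAC replicate 1 (r = 0.979 across genes, against 0.982 to 0.990 in the other 8 libraries). Day-1 TAC replicate 3 was the only library with high Xist (10532 reads, against at most 40) and low Ddx3y, a Y-linked gene (18 reads, against at least 3312), so the sexes were not balanced between the groups. In these bulk libraries, fewer cells of a type and less RNA per cell cannot be told apart.

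Several members carry microRNAs inside their transcripts, and these are shown because they are part of what the host RNAs are known for. The microRNAs themselves were not measured. RefSeq mature sequences (GRCm38.p6) were matched by position to 8 of the 34 members, and the capitals mark the seed, bases 2 to 8. H19 carries miR-675, Igf2 carries miR-483, and miR-127 is made from the strand opposite to Rtl1, whose messenger RNA it is known to cleave.
miR-675-5p: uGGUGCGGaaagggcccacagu
miR-675-3p: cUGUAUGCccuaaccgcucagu
miR-483-5p: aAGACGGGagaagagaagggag
miR-483-3p: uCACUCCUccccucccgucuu
miR-127-3p: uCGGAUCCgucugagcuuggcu
Mirg held 14 microRNA genes with 26 mature sequences, Rian 3 with 6 and Meg3 2 with 3. Among all mature sequences of the hosts, a single seed occurred more than once: GGUUGCC, in miR-453 and miR-496a-5p of Mirg.
miR-453: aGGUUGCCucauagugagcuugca
miR-496a-5p: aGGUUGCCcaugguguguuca

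Promoters of 4 members are shown next, of Igf2, Peg3 and Plagl1, which were lower after day-1 TAC, and of Meg3, which was higher after day-7 TAC. Starts are those of RefSeq, and each promoter is cut to a stretch that no annotated exon overlaps. The capitals mark motifs searched on both strands: TGCCGC (the core bound by ZFP57, which protects imprints), GGGGCCCC (bound by PLAGL1), GCCATNTT (bound by YY1), TATAAA (the TATA box), CCAAT (the CCAAT box, bound by NF-Y) and TGACGTCA (the cyclic AMP response element, CRE). The stretch of Igf2 lies at chr7:142657497-142657746 on the minus strand, ending 1 base before 1 of its annotated starts; which start the reads came from was not measured.
Igf2: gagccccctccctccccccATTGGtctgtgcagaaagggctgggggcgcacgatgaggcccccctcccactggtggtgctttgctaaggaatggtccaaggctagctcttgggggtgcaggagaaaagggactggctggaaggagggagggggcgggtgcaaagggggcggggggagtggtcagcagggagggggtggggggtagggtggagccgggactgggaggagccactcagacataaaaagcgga
The stretch of Peg3 lies at chr7:6730432-6730577 on the minus strand, between Peg3 and the divergent gene Usp29.
Peg3: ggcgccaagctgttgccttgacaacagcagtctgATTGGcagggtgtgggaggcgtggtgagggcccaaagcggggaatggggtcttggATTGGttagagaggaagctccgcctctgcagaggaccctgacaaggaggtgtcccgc
The stretch of Plagl1 lies at chr10:13090582-13090690 on the plus strand.
Plagl1: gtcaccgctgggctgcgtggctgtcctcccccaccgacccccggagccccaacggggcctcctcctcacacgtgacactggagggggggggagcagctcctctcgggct
The stretch of Meg3 lies at chr12:109540746-109540995 on the plus strand, ending 1 base before its start.
Meg3: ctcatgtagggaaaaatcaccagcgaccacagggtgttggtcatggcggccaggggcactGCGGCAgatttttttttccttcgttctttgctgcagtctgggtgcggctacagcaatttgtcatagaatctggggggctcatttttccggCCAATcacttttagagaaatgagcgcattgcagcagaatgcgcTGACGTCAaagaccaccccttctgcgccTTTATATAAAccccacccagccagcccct
Over the 250 bases before each start, TGCCGC stood in 12.8% of the 47 promoters of 28 members with one in the table, among them those of Copg2, Meg3, Mest, Plagl1 and Zim1, and in 8.68% of all 32851 promoters. The shares for the PLAGL1 motif were 6.38% (3 promoters, of Peg3, Ppp1r9a and Rasgrf1) and 0.889%. The YY1 motif stood in 2.13% (Slc38a4) and 3.91%, the TATA box in 19.1% and 12.4%, the CCAAT box in 31.9% and 33.8%, and the CRE in 4.26% (Meg3 and Peg3) and 1.55%. Promoters of the same gene can overlap, so a site can be counted more than once. This was so for the ZFP57 core of Mest and the TATA box of Gnas. In the Meg3 stretch, of 250 bases, the ZFP57 core, the CCAAT box, the CRE and the TATA box all occurred. The Igf2 stretch, of 250 bases, and the Peg3 stretch, of 146, held only CCAAT boxes. The Plagl1 stretch, of 109 bases, held none of the 6. The stretches differ in length, and cutting removed motifs. Over the 250 bases, Plagl1 held the ZFP57 core, and Peg3 also the PLAGL1 motif and the CRE. The CCAAT box and the CRE were added after the sequences had been seen. Median CpG number was 8 in the member promoters and 6 in all promoters.

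Compared with sham, day-1 TAC left 11 of the 27 tested members lower and 4 higher (limma, Benjamini-Hochberg adjusted p under 0.05 over 13712 genes). Among all genes tested, 20.5% were lower and 14.3% were higher, beside 40.7% and 14.8% of the members. Because the list was drawn up with earlier results of these data known, these shares are a description and were not tested. The median log2 fold change was -0.18 over the members and -0.04 over all genes. Day-7 TAC against sham had a smaller count, with 5 members higher and 3 lower, against backgrounds of 13.8% and 15.1%, and a median of -0.01, as in all genes. Day-1 TAC against day-7 TAC had 10 members lower and 1 higher, against backgrounds of 10.3% and 6.42%, with a median of -0.23 against -0.03. The 11 and the 10 lower members include Dlk1, which passed the filter only through the groups where it was high. Leaving out sham replicate 2 reduced the members called for day-1 TAC against sham from 15 to 8. For day-7 TAC against sham the count of 8 went to 5 without sham replicate 2 or day-7 TAC replicate 1, and between the TAC groups the count of 11 went to 7 without day-7 TAC replicate 1 or replicate 2. Without day-1 TAC replicate 3, the library with high Xist, 10 members were called against sham and 9 against day-7 TAC, and without day-1 TAC replicate 1 these counts were 13 and 8. The comparisons with sham share the same 3 control libraries.

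**Figure D1:**
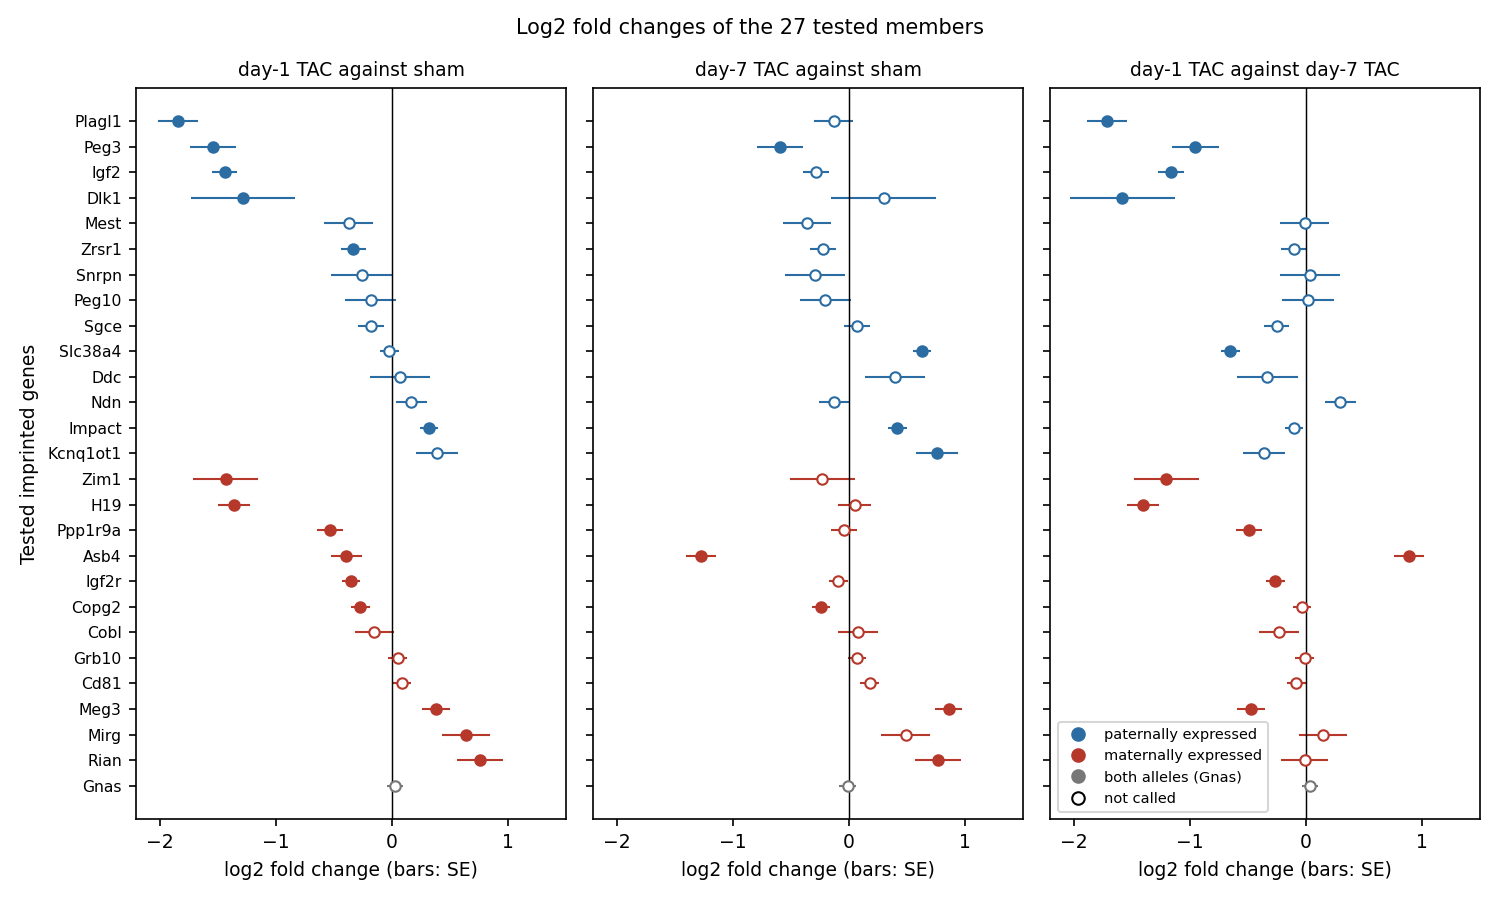
Log2 fold change (x axis) with its standard error (bars) for each of the 27 tested imprinted genes (y axis) in the 3 comparisons; blue is paternally expressed, red maternally expressed, grey Gnas, and open points did not pass the test. In day-1 TAC against sham, Plagl1 at -1.84 and Rian at 0.76 are the ends of the range.

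The growth factor Igf2 and its neighbour H19 were both lower after day-1 TAC than in either other group. Igf2 (chr7:142650766-142666816, minus strand, protein-coding) encodes insulin-like growth factor 2, a paternally expressed fetal growth factor. Its log2 values were 8.91, 8.85 and 8.92 in sham, 8.59, 8.86 and 8.38 after day-7 TAC, and 7.30, 7.52 and 7.55 after day-1 TAC. Every day-1 TAC library lay below every other library, and the sham libraries were close together. Igf2 was 2.72-fold lower after day-1 TAC than in sham (log2 fold change -1.44, SE 0.11, limma adjusted p = 6.88e-05, n = 3). It was 2.23-fold lower after day-1 than after day-7 TAC (-1.16, SE 0.11, limma adjusted p = 0.000585), and day-7 TAC against sham did not pass the test (-0.28, limma adjusted p = 0.0849). Without day-7 TAC replicate 2, whose value was within the sham range, the last comparison gave -0.41 with an adjusted p of 0.0201.

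H19 (chr7:142575529-142578143, minus strand, a long noncoding RNA) is maternally expressed, and shares enhancers and a control region with Igf2, which lies upstream of it. It read 8.36, 8.43 and 8.33 in sham, 8.50, 8.69 and 8.07 after day-7 TAC, and 7.22, 6.86 and 6.97 after day-1 TAC. The day-1 TAC libraries were again below all 6 others, while the day-7 TAC libraries lay on both sides of sham. The difference was -1.36 (SE 0.14, limma adjusted p = 0.000201) from sham and -1.40 (SE 0.14, limma adjusted p = 0.000626) from day-7 TAC. Between day-7 TAC and sham it was 0.05 (limma adjusted p = 0.831). Within a library, the log2 value of Igf2 minus that of H19 was 0.55, 0.43 and 0.60 in sham, 0.09, 0.18 and 0.32 after day-7 TAC, and 0.09, 0.66 and 0.58 after day-1 TAC. All day-7 TAC libraries were below the sham range of this difference, and the day-1 TAC libraries lay on both sides of it; it was not tested.

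Igf2r, a receptor of IGF2, was lower after day-1 TAC, and the adaptor gene Grb10 passed no test. Igf2r (chr17:12682406-12769664), maternally expressed, encodes the receptor that carries IGF2 to lysosomes for degradation. It read 8.73, 8.88 and 8.64 in sham, 8.71, 8.60 and 8.67 after day-7 TAC, and 8.46, 8.35 and 8.39 after day-1 TAC, so that the day-1 TAC libraries lay below all others. It was 1.27-fold lower than in sham (-0.35, SE 0.08, limma adjusted p = 0.00646) and -0.26 from day-7 TAC (SE 0.08, limma adjusted p = 0.0437). The second call was lost on leaving out each TAC library in turn, with adjusted p between 0.0533 and 0.133. That call was also lost when the libraries were scaled by linear total, upper quartile or the median of log ratios. Quantile normalization and a fit without the filter removed it too. Grb10 (chr11:11930508-12038683), an adaptor that dampens insulin and IGF1 receptor signalling and is maternally expressed outside the brain, had means of 8.28 ± 0.15 in sham, 8.35 ± 0.06 and 8.33 ± 0.04 after day-7 and day-1 TAC (SD, n = 3), and passed no test. Igf2r is known to overlap the antisense RNA Airn, and the strand setting of the counting is not given in the sources used here.

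Plagl1 had the largest difference from sham among the 27 tested members. Plagl1 (chr10:13060504-13131694, plus strand) is paternally expressed and encodes a zinc-finger transcription factor, also called ZAC1, that is known to act on Igf2, H19 and other imprinted genes. Its values were 6.50, 6.73 and 6.51 in sham, 6.58, 6.56 and 6.21 after day-7 TAC, and 4.30, 4.96 and 4.96 after day-1 TAC. The day-1 TAC libraries lay below all 6 others, and sham and day-7 TAC overlapped. The fall was 3.57-fold from sham (-1.84, SE 0.17, limma adjusted p = 0.000114) and 3.26-fold from day-7 TAC (-1.71, SE 0.17, limma adjusted p = 0.000585). Day-7 TAC against sham gave -0.13 (limma adjusted p = 0.602). Its neighbour Phactr2, listed here as biallelic, was lower after both operations, by -0.90 (SE 0.09, limma adjusted p = 0.000176) after day-1 TAC and by -0.81 (SE 0.09, limma adjusted p = 0.000304) after day-7 TAC.

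In the Peg3 domain of chromosome 7 the paternally expressed Peg3 and the maternally expressed Zim1 were both lower after day-1 TAC. Peg3 (chr7:6703892-6730431, minus strand) encodes a zinc-finger protein and binds DNA at other imprinted genes. It read 8.13, 8.10 and 7.66 in sham, 7.31, 7.73 and 7.09 after day-7 TAC, and 6.08, 6.47 and 6.74 after day-1 TAC. The 3 groups descended in that order, with sham and day-7 TAC overlapping and day-1 TAC below all the others. Peg3 was 2.90-fold lower after day-1 TAC than in sham (-1.54, SE 0.20, limma adjusted p = 0.000485) and 1.93-fold lower than after day-7 TAC (-0.95, SE 0.20, limma adjusted p = 0.0111). The step from sham to day-7 TAC (-0.59, SE 0.20, limma adjusted p = 0.0483) was lost without sham replicate 1 or 2, day-7 TAC replicate 1 or 3, or day-1 TAC replicate 2 (adjusted p 0.0634 to 0.162). Scaling by linear total, upper quartile or the median of log ratios, and quantile normalization, also removed this call.

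Zim1 (chr7:6671269-6696450, minus strand) is a zinc-finger gene at a low level. It had 84, 278 and 116 reads in sham, 135, 106 and 116 after day-7 TAC, and 53, 52 and 42 after day-1 TAC, which gave log2 values of 2.07, 3.44 and 2.59, then 2.49, 2.46 and 2.46, then 1.34, 1.36 and 1.12. Sham replicate 2 was higher than every other library, and the day-1 TAC libraries were below the rest. The difference from sham was -1.43 (SE 0.28, limma adjusted p = 0.0036) and that from day-7 TAC -1.2 (SE 0.28, limma adjusted p = 0.0177). The latter was lost on leaving out each day-7 TAC library in turn, and without day-1 TAC replicate 3 (adjusted p 0.0515 to 0.0533).

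**Figure D2:**
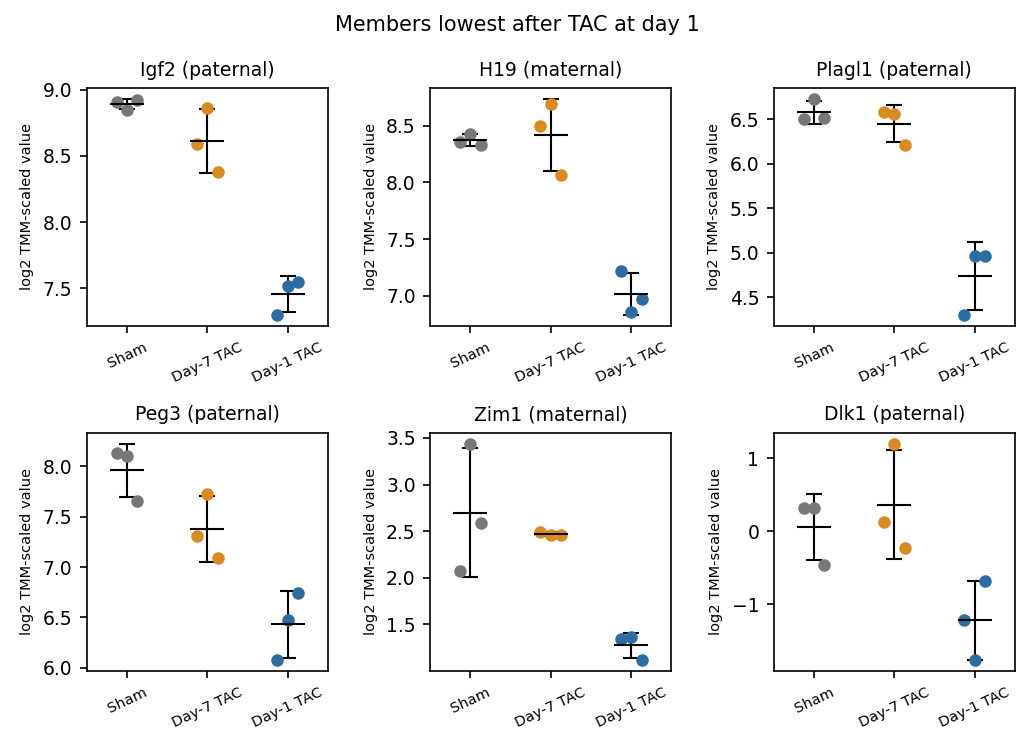
Log2 TMM-scaled value (y axis, a separate range in each panel) of Igf2, H19, Plagl1, Peg3, Zim1 and Dlk1 in each library by group; points are libraries, black lines the group mean and SD, n = 3. In each panel the day-1 TAC points lie below all sham and day-7 TAC points, as for Plagl1, at 4.30 to 4.96 after day-1 TAC.

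In the Dlk1-Meg3 domain of chromosome 12 the noncoding RNAs Meg3, Rian and Mirg were higher after day-1 TAC than in sham, while the protein-coding gene Dlk1 had its lowest values there. Dlk1 (chr12:109452823-109463336), paternally expressed, encodes a membrane protein of the Notch ligand family that keeps precursor cells undifferentiated. Its level was very low, at 25, 32 and 14 reads in sham, 26, 44 and 18 after day-7 TAC, and 9, 6 and 12 after day-1 TAC, and it passed the filter through the sham and day-7 TAC libraries. On the log2 scale these were 0.32, 0.32 and -0.46, then 0.12, 1.2 and -0.23, then -1.22, -1.76 and -0.68. The day-1 TAC libraries were lowest, with group differences of -1.28 from sham and -1.58 from day-7 TAC (SE 0.45 each). Because Dlk1 passed the filter only through the groups where it was high, these are given as a description. Its calls among the lower members were also lost in 5 of the 9 fits without 1 library, in both comparisons: without sham replicate 2, day-7 TAC replicate 1, day-1 TAC replicate 1 or 2, and without sham replicate 1 in the former or day-7 TAC replicate 2 in the latter. Rtl1, a paternally expressed gene derived from a retrotransposon, stayed under the filter with 3 to 10 reads in sham, 19 to 28 after day-7 TAC and 13 to 18 after day-1 TAC. Sham lay below both TAC groups for Rtl1, and in a fit without the filter it was higher after day-7 TAC (1.88, SE 0.44, limma adjusted p = 0.0113) and day-1 TAC (1.38, SE 0.44, limma adjusted p = 0.0372). MicroRNA precursors are transcribed from its opposite strand, and reads of the strands cannot be told apart without a stated strand setting.

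Meg3 (chr12:109541001-109571726, plus strand), a maternally expressed long noncoding RNA, rose after TAC. It read 5.98, 6.03 and 6.40 in sham, 7.03, 7.03 and 6.92 after day-7 TAC, and 6.36, 6.53 and 6.67 after day-1 TAC. The day-7 TAC libraries were above all others, and day-1 TAC overlapped sham. Meg3 was 1.81-fold higher after day-7 TAC than in sham (0.86, SE 0.12, limma adjusted p = 0.000687) and 1.3-fold higher after day-1 TAC (0.38, SE 0.12, limma adjusted p = 0.0264). Day-1 TAC was below day-7 TAC by -0.47 (SE 0.12, limma adjusted p = 0.0208). The day-1 TAC call against sham was lost without sham replicate 1 or 2 or day-1 TAC replicate 2 or 3 (adjusted p 0.06 to 0.0938), and the call between TAC groups without day-7 TAC replicate 1 or 2 or day-1 TAC replicate 1 (0.0599 to 0.0659). Quantile normalization also removed the call between TAC groups.

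Rian (chr12:109603940-109661716) and Mirg (chr12:109729764-109749460) lie downstream of Meg3 on the same strand and are hosts of small RNAs. Rian read 3.79, 4.20 and 4.74 in sham, 5.25, 4.89 and 4.92 after day-7 TAC, and 5.15, 4.98 and 4.90 after day-1 TAC, so that all 6 TAC libraries were above sham. It rose by 0.77 after day-7 TAC (SE 0.20, limma adjusted p = 0.0171) and by 0.76 after day-1 TAC (SE 0.20, limma adjusted p = 0.0153). The day-7 TAC call was lost without sham replicate 2 or day-7 TAC replicate 1 (adjusted p 0.0523 and 0.0615). Mirg read 1.48, 1.05 and 1.16 in sham, 1.91, 1.78 and 1.49 after day-7 TAC, and 1.61, 1.84 and 2.17 after day-1 TAC, again with both TAC groups above sham. Its rise passed the test after day-1 TAC (0.64, SE 0.21, limma adjusted p = 0.0358) and not after day-7 TAC (0.49, SE 0.21, limma adjusted p = 0.101). The former was lost without sham replicate 2 or 3 or day-1 TAC replicate 2 or 3 (adjusted p 0.0686 to 0.121). Quantile normalization also removed this call. The TAC groups did not differ by the test in Rian (-0.01) or Mirg (0.15).

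Asb4 and Slc38a4 differed after day-7 TAC from both other groups, and Kcnq1ot1 was higher after day-7 TAC than in sham. Asb4 (chr6:5383386-5433022), maternally expressed in the embryo, encodes a substrate-recognition subunit of a ubiquitin ligase and is known from vascular development. It read 3.86, 3.96 and 3.74 in sham, 2.55, 2.54 and 2.65 after day-7 TAC, and 3.35, 3.75 and 3.31 after day-1 TAC. The day-7 TAC libraries stood apart below all others, by 2.42-fold from sham (-1.27, SE 0.13, limma adjusted p = 0.000217), and day-1 TAC was 0.89 above day-7 TAC (SE 0.13, limma adjusted p = 0.00331). Day-1 TAC overlapped sham (-0.39, SE 0.13, limma adjusted p = 0.0463), and that call was lost on leaving out each library in turn, except for day-1 TAC replicate 2 (adjusted p 0.0528 to 0.15). Scaling by linear total, upper quartile or the median of log ratios, and a fit without the filter, also removed that call. Asb4 is the only member that was higher after day-1 than after day-7 TAC by the test.

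Slc38a4 (chr15:96994820-97055956), a paternally expressed transporter of amino acids, read 6.34, 6.50 and 6.53 in sham, 7.13, 7.09 and 7.03 after day-7 TAC, and 6.28, 6.51 and 6.52 after day-1 TAC. It was 1.55-fold higher after day-7 TAC than in sham (0.63, SE 0.08, limma adjusted p = 0.000687), and day-1 TAC was -0.65 from day-7 TAC (SE 0.08, limma adjusted p = 0.00176). Day-1 TAC and sham overlapped, with a difference of -0.02 (SE 0.08, limma adjusted p = 0.888). Its neighbour Slc38a2, an amino acid transporter listed here as biallelic, was lower after day-1 TAC than in sham (-0.70, SE 0.12, limma adjusted p = 0.00164).

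Kcnq1ot1 (chr7:143203458-143296549, minus strand) is the paternally expressed RNA that is known to silence its domain, and lies inside Kcnq1 on the other strand. It read 3.24, 3.4 and 3.57 in sham, 4.63, 4.02 and 3.83 after day-7 TAC, and 3.67, 3.89 and 3.82 after day-1 TAC. All TAC libraries were above sham. Day-7 TAC passed the test (0.76, SE 0.18, limma adjusted p = 0.0125) and day-1 TAC did not (0.39, SE 0.18, limma adjusted p = 0.123), although without day-7 TAC replicate 1, the highest library, the day-1 TAC value of 0.39 had an adjusted p of 0.0345. The TAC groups did not differ by the test (-0.36, limma adjusted p = 0.197). Of the maternally expressed genes listed outside the set for that domain, 5 were tested, beside the member Cd81. They are listed by the known allele, and whether they are imprinted in the ventricle was not measured. Cdkn1c, an inhibitor of the cell cycle, was lower after both operations (-0.37 after day-1 TAC, limma adjusted p = 0.0351, and -0.43 after day-7 TAC, limma adjusted p = 0.0221). The first call was lost without sham replicate 1 or 2, day-7 TAC replicate 3 or day-1 TAC replicate 1 or 3 (adjusted p 0.0503 to 0.115), the second without sham replicate 1 or day-7 TAC replicate 1 or 2 (0.0577 to 0.0749). Kcnq1, the channel gene that holds Kcnq1ot1, was lower after day-1 TAC (-0.38, SE 0.09, limma adjusted p = 0.00744) and at -0.10 after day-7 TAC (limma adjusted p = 0.407). Tssc4 was higher after day-7 TAC (0.42, SE 0.12, limma adjusted p = 0.03), a call lost without sham replicate 2 or 3 or each day-7 TAC library (adjusted p 0.0512 to 0.107), and at 0.15 after day-1 TAC (limma adjusted p = 0.392). Nap1l4 was lower after day-1 TAC (-0.20, SE 0.06, limma adjusted p = 0.0317), a call lost without sham replicate 2 or 3 or day-1 TAC replicate 2 or 3 (adjusted p 0.0643 to 0.103). The day-1 TAC calls of Cdkn1c and Nap1l4 were also lost when the libraries were scaled by linear total, upper quartile or the median of log ratios. Osbpl5 passed no test (0.07 after day-1 and 0.11 after day-7 TAC); it and Nap1l4 were named after their values were seen. The tetraspanin Cd81, imprinted in extra-embryonic tissue, had means of 7.92 ± 0.04, 8.10 ± 0.15 and 8.01 ± 0.03 in sham, day-7 and day-1 TAC (SD, n = 3). Without day-7 TAC replicate 3, Cd81 passed the test after day-7 TAC (0.27, adjusted p 0.0243).

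**Figure D3:**
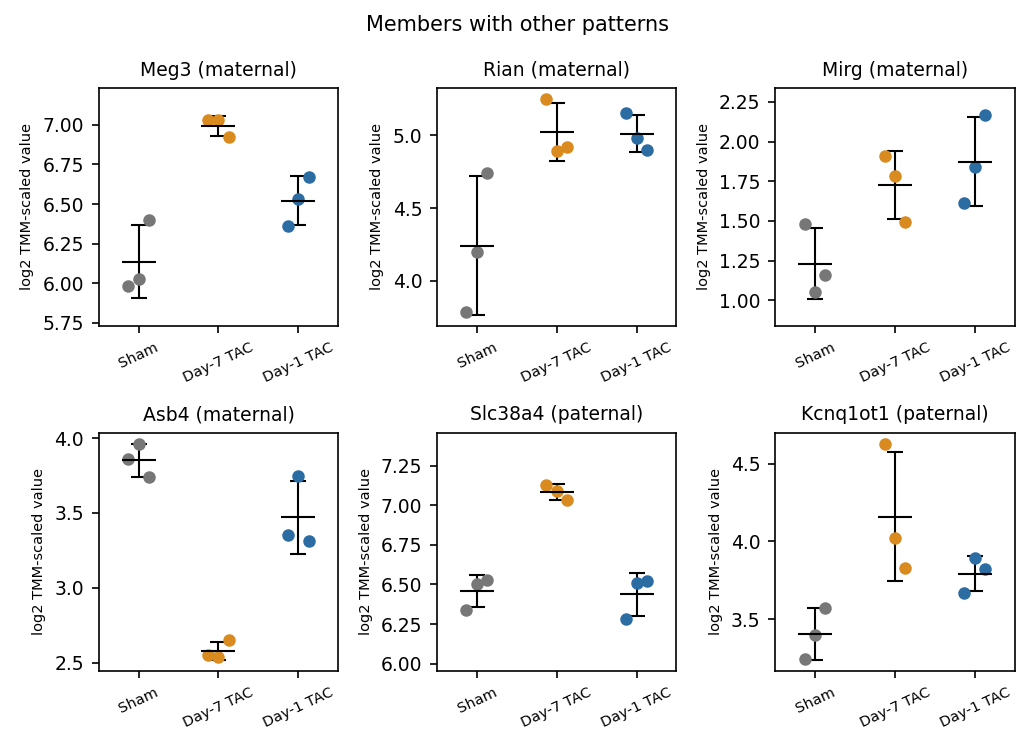
Log2 TMM-scaled value (y axis, a separate range in each panel) of Meg3, Rian, Mirg, Asb4, Slc38a4 and Kcnq1ot1 in each library by group; points are libraries, black lines the group mean and SD, n = 3. Day-7 TAC stands apart for Meg3 (6.92 to 7.03), Asb4 (2.54 to 2.65) and Slc38a4 (7.03 to 7.13), while Rian, Mirg and Kcnq1ot1 have both TAC groups above sham.

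4 members with smaller changes remain among those called. Impact, a paternally expressed regulator of the translation kinase GCN2, read 4.59, 4.55 and 4.58 in sham, 4.87, 4.99 and 5.10 after day-7 TAC, and 4.82, 4.90 and 4.95 after day-1 TAC. It was higher after day-7 TAC (0.42, SE 0.08, limma adjusted p = 0.0049) and after day-1 TAC (0.32, SE 0.08, limma adjusted p = 0.0144; 0.30 with adjusted p 0.0506 without sham replicate 2). Sham libraries lay below all 6 TAC libraries. Ppp1r9a (chr6:4902917-5165661), which encodes the actin-binding protein neurabin and is imprinted in extra-embryonic tissue, read 6.26, 6.50 and 6.37 in sham, 6.2, 6.32 and 6.48 after day-7 TAC, and 5.62, 6.03 and 5.89 after day-1 TAC. Day-1 TAC was below all other libraries, by -0.53 from sham (SE 0.11, limma adjusted p = 0.00556) and by -0.49 from day-7 TAC (SE 0.11, limma adjusted p = 0.0172), the latter -0.42 with adjusted p 0.0658 without day-7 TAC replicate 3. Impact was thus higher after either operation, and Ppp1r9a was lower after the earlier one.

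Zrsr1 (chr11:22972005-22976496), a paternally expressed gene of the U2 splicing factor family, read 5.43, 5.12 and 4.99 in sham, 5.04, 4.87 and 4.96 after day-7 TAC, and 4.81, 4.88 and 4.86 after day-1 TAC. Its difference after day-1 TAC (-0.33, SE 0.11, limma adjusted p = 0.0415) was lost on leaving out each library in turn, except for sham replicate 3 (adjusted p 0.0507 to 0.114). Scaling by linear total, upper quartile or the median of log ratios, and quantile normalization, also removed the call. Copg2 (chr6:30747554-30896794), a coatomer subunit imprinted in few tissues, read 6.04, 5.94 and 5.93 in sham, 5.63, 5.72 and 5.83 after day-7 TAC, and 5.80, 5.70 and 5.59 after day-1 TAC, with sham above both. It differed from sham by -0.27 after day-1 TAC (SE 0.08, limma adjusted p = 0.0254) and by -0.24 after day-7 TAC (SE 0.08, limma adjusted p = 0.0453). The first was lost without sham replicate 1 or 2 or day-1 TAC replicate 2 or 3 (adjusted p 0.0541 to 0.0862), the second without each sham library, day-7 TAC replicate 1 or 2, or day-1 TAC replicate 2 (0.0614 to 0.147). Both Copg2 calls were also lost when scaled by linear total or upper quartile, and after quantile normalization.

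Members that passed no test covered the whole range of levels. Gnas (chr2:174284320-174346744), which encodes the stimulatory G protein subunit, had means of 10.10 ± 0.02, 10.09 ± 0.03 and 10.13 ± 0.04 in sham, day-7 TAC and day-1 TAC (SD, n = 3), the narrowest spread of the set in sham together with Impact. Mest (chr6:30723547-30748465), an enzyme of the hydrolase family whose 3′ end overlaps Copg2 on the other strand, had 6.17 ± 0.22, 5.81 ± 0.36 and 5.80 ± 0.39. Without day-1 TAC replicate 1, its difference from sham after day-1 TAC was -0.59 with an adjusted p of 0.0441, against -0.37 and 0.198 with all libraries. Sgce (epsilon-sarcoglycan) had 5.10 ± 0.19, 5.17 ± 0.07 and 4.92 ± 0.13, and its divergent neighbour Peg10, of retrotransposon origin, 1.63 ± 0.21, 1.43 ± 0.18 and 1.45 ± 0.36.

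Ndn (necdin, a growth suppressor of neurons) had means of 4.11 ± 0.23, 3.98 ± 0.17 and 4.28 ± 0.11 in the same order, and Snrpn, a splicing protein gene of the same domain, 1.60 ± 0.22, 1.31 ± 0.25 and 1.34 ± 0.49. Ddc, the decarboxylase of dopamine and serotonin synthesis, which is paternally expressed in the embryonic heart, ranged from 4.33 to 4.98 in sham, 4.66 to 5.57 after day-7 TAC and 4.38 to 5.20 after day-1 TAC, so the groups overlapped. Cobl, an actin nucleator, had 4.32 ± 0.36, 4.40 ± 0.06 and 4.17 ± 0.23. Under the filter, Nnat had 6 to 20 reads and Rasgrf1 4 to 10 reads per library, and the groups overlapped in both.

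Per kilobase of annotated exon, which allows genes to be compared, the linear level in sham was 135 for H19, 98 for Gnas, 84.1 for Cd81, 83.3 for Igf2, 46.3 for Igf2r and 34.3 for Grb10. After day-1 TAC the order of these levels changed to Gnas (100), Cd81 (89.8), H19 (52.9), Igf2r (36.4), Grb10 (35.5) and Igf2 (30.8). H19 was thus the highest member in sham and after day-7 TAC (141), and Gnas after day-1 TAC. The lowest member in sham was Rasgrf1, at 0.0235, below Rtl1, at 0.0536. Igf2 and Cd81 in sham stood close together per kilobase, and such gaps also carry the uncertainty of which exons were used.

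Paternally and maternally expressed genes each included members that were lower and members that were higher. After day-1 TAC, 5 of 14 tested paternally expressed genes were lower than in sham (35.7%) and 1 was higher (7.14%), with a median of -0.22; the shares over all genes were 20.5% and 14.3%. The 5 lower ones include Dlk1, here and against day-7 TAC. Of the 12 maternally expressed genes, 6 were lower (50%) and 3 higher (25%), with a median of -0.21. Against day-7 TAC the paternal class had 5 lower (35.7%) and a median of -0.29, and the maternal class 5 lower (41.7%), 1 higher (8.33%) and a median of -0.16, beside 10.3% lower and 6.42% higher over all genes. After day-7 TAC the paternal class had 3 higher (21.4%) and 1 lower (7.14%) with a median of -0.13, and the maternal class 2 higher and 2 lower (16.7% each) with a median of 0.06, near the 13.8% and 15.1% over all genes. Without day-7 TAC replicate 3 the paternal median was -0.02, and without sham replicate 1 it was -0.05. Both classes hold genes with large falls, Igf2, Plagl1 and Peg3 in one, H19 and Zim1 in the other. The 3 maternally expressed genes that rose after day-1 TAC were all of the Meg3 domain. No test between the classes was made, since the members were chosen with results known.

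As a mean over the genes of a class, each library was set against the sham mean. Paternally expressed genes were at 0.09, 0 and -0.08 in sham, 0.01, 0.17 and -0.11 after day-7 TAC, and -0.55, -0.48 and -0.36 after day-1 TAC. Maternally expressed genes were at -0.07, 0.07 and 0 in sham, 0.09, 0.06 and 0 after day-7 TAC, and -0.22, -0.21 and -0.20 after day-1 TAC. By this mean all 3 day-1 TAC libraries were below all others in both classes, with the lower values in the paternally expressed class, a difference that was not tested. The paternal mean includes Dlk1, which passed the filter only through the groups where it was high. By the median over genes, the day-1 TAC libraries were at -0.27, -0.27 and -0.20 in the paternal and -0.15, -0.19 and -0.16 in the maternal class. Day-7 TAC replicate 3 then had a paternal value of -0.29. Without the members that are imprinted in few tissues, the day-1 TAC medians against sham were -0.26 over 13 paternally and -0.15 over 8 maternally expressed genes. Scaling the libraries by their linear totals shifted day-1 TAC against sham by 0.10 for every gene, and then 4 members were higher and 7 lower, with medians of -0.12 and -0.11. That scaling moved the share of higher genes among all calls to 60.1%, against 41.1% in the main analysis, and to 59.7% against 47.7% after day-7 TAC, with 6 members higher and 1 lower. Between the TAC groups the share went from 38.5% to 50.2%, and to 54.3% when scaled by the upper quartile, with 1 member higher and 9 lower in both.

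**Figure D4:**
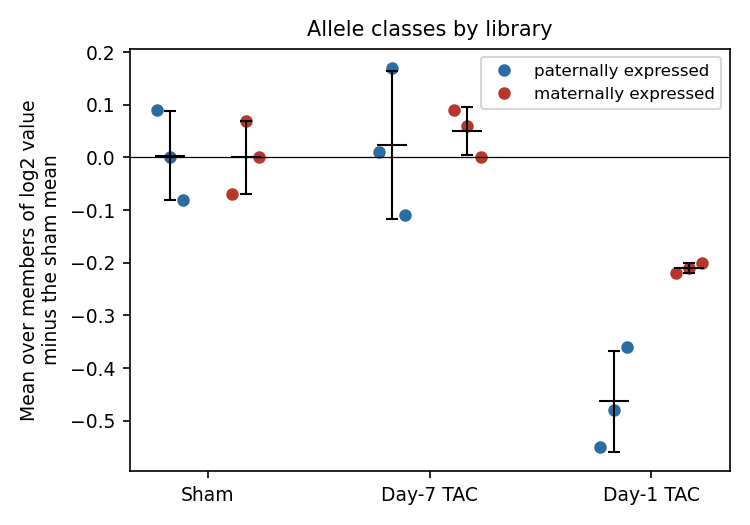
Mean over the tested members of each allele class of the log2 value minus the sham mean (y axis), per library and group; points are libraries, black lines the mean and SD of 3 libraries, blue paternally expressed (14 genes), red maternally expressed (12 genes). The day-1 TAC libraries lie at -0.55 to -0.36 in the paternal class and at -0.22 to -0.20 in the maternal class. The paternal class includes Dlk1, which passed the filter only through the sham and day-7 TAC groups.

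Other imprinted genes outside the set were counted in the same way, as 2 lists. They were listed by the known allele, and whether they are imprinted in the ventricle was not measured. Of 7 tested paternally expressed ones, 1 (14.3%, beside 20.5% of all genes) was lower after day-1 TAC than in sham, Gab1, a docking protein of growth factor receptors (-0.45, SE 0.09, limma adjusted p = 0.00391), and the median was -0.30. After day-7 TAC, 3 (42.9%, beside 13.8%) were higher and 1 (14.3%, beside 15.1%) lower, with Zdbf2 at 1.12 (SE 0.22, limma adjusted p = 0.00445), Gab1 at -0.61 (SE 0.09, limma adjusted p = 0.00109) and Snhg14, the RNA opposite to Ube3a, at 0.51 (SE 0.14, limma adjusted p = 0.0212). Between the TAC groups Zdbf2 was lower after day-1 TAC by -1.45 (SE 0.22, limma adjusted p = 0.00324), 1 of 3 that were lower (42.9%, beside 10.3%). Of 21 tested maternally expressed ones, 3 were higher (14.3%) and 4 lower (19%) after day-1 TAC, as over all genes (14.3% and 20.5%), with a median of 0.05. The 3 were the serotonin receptor Htr2a (1.04, SE 0.24, limma adjusted p = 0.0084), the phospholipid transporter Atp10a (0.90, SE 0.24, limma adjusted p = 0.0153) and Tfpi2, a protease inhibitor (0.67, SE 0.17, limma adjusted p = 0.0138). The Atp10a call was lost without sham replicate 1 or day-1 TAC replicate 1, the Tfpi2 call without sham replicate 2, and that of Snhg14 without sham replicate 2 or day-7 TAC replicate 1 or 2, with adjusted p of at most 0.0546, 0.0522 and 0.0822. After day-7 TAC 2 were higher and 2 lower (9.52% each, beside 13.8% and 15.1%), with a median of -0.01. Among them were Slc22a3 (-0.94, SE 0.26, limma adjusted p = 0.0232) and Ago2 (0.60, SE 0.12, limma adjusted p = 0.0061). The Slc22a3 call was lost without sham replicate 1 or 2 or day-7 TAC replicate 1 or 2 (adjusted p 0.0577 to 0.0832). Between the TAC groups 1 maternally expressed gene, Slc22a3, was higher (4.76%, beside 6.42%) and 2 were lower (9.52%, beside 10.3%), Ago2 among them. Those calls of Slc22a3 and Ago2 were lost in 4 and 2 of the 9 fits without 1 library.

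Genes that set, protect or erase imprints were lower in 11 of 25 tested and higher in 2 after day-1 TAC, with a median of -0.17, against the backgrounds of 20.5% and 14.3%. The chromatin proteins Arid4b (-0.57, SE 0.08, limma adjusted p = 0.000654) and Atrx (-0.52, SE 0.09, limma adjusted p = 0.00201), the demethylation enzyme Tet2 (-0.56, SE 0.11, limma adjusted p = 0.00349) and Zfp445 (-0.48, SE 0.11, limma adjusted p = 0.00716) were among them. Zfp57, whose protein binds methylated TGCCGC, was higher after both operations (0.57, SE 0.10, limma adjusted p = 0.0023, after day-1 TAC and 0.49, SE 0.10, limma adjusted p = 0.00642, after day-7 TAC). After day-7 TAC, 3 of the 25 were higher (12%, beside 13.8% of all genes) and 2 lower (8%, beside 15.1%). The median was -0.04. Day-1 TAC against day-7 TAC had 8 lower (32%, beside 10.3%), with Tet2 at -0.93 (SE 0.11, limma adjusted p = 0.00101) as the largest. With each library left out in turn, the Tet2 and Arid4b calls between the TAC groups were kept in all 9 fits. Those of Atrx and Ehmt1 were lost in 7, Zfp445 and Smchd1 in 6, Suz12 in 5 and Ctcf in 3. After day-1 TAC against sham, the call of Kdm1b was lost in 8 of the 9, and those of Ehmt2 and Tet3 in 4 each. The day-7 TAC calls of Dnmt3a, Mbd3 and Tet2 were lost in 5 each. Scaling the libraries by linear total, upper quartile or the median of log ratios also removed calls. Between the TAC groups, those of Atrx, Ehmt1, Zfp445, Smchd1 and Suz12 were lost under each of these scalings. By linear total, the day-1 TAC calls of Kdm1b, Ehmt2, Tet3 and Yy1 against sham and the day-7 TAC call of Dnmt3a were lost. Biallelic neighbours of the imprinted clusters served as a comparison list. Of 30 tested, 4 were higher and 4 lower after day-1 TAC (13.3% each, beside 14.3% and 20.5% of all genes). After day-7 TAC 4 were higher (13.3%, beside 13.8%) and 2 lower (6.67%, beside 15.1%). The medians were 0.05 after day-1 TAC and 0.02 after day-7 TAC.

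Levels of cell type markers moved beside these genes, and their part in the results was not tested. For the counts below, 14.3% of all genes were higher and 20.5% lower after day-1 TAC than in sham. After day-7 TAC these shares were 13.8% and 15.1%, and 6.42% were higher after day-1 than after day-7 TAC. The summed linear level of 11 fibroblast markers was 4280 to 5630 in sham, 5380 to 6030 after day-7 TAC and 5820 to 7750 after day-1 TAC, with 4 markers higher and 1 lower by the test after day-1 TAC. The 10 mural cell markers summed to 2330 to 2520, 2290 to 2400 and 1670 to 2050 in the same order of groups, with 3 lower and 2 higher after day-1 TAC. The 10 endothelial markers summed to 2720 to 3090, 2620 to 2720 and 2370 to 2730, with 5 lower after day-1 TAC. Macrophage markers summed to 164 to 209, 122 to 159 and 166 to 236, and 6 of 10 were higher after day-1 than after day-7 TAC. The 10 lymphocyte and neutrophil markers summed to 9.78 to 15.1, 38.7 to 72.2 and 17.9 to 39.9, with 4 of 6 tested higher after day-7 TAC and 3 after day-1 TAC. Nerve and Schwann cell markers (8 in the table) summed to 31.3 to 33, 23.6 to 26 and 16.8 to 24.4, with 3 of 4 tested lower after day-1 TAC and 2 after day-7 TAC. Epicardial and mesothelial markers (7 in the table) summed to 34.3 to 51.1, 65.1 to 93.9 and 65.5 to 103, with 2 of 4 tested higher and 1 lower after each operation. In the lymphocyte and neutrophil, nerve and epicardial lists, low markers could pass the filter only through groups where they were high. Their counts are a description. Red cell markers, of which 7 of 10 were in the table, summed to 733 to 1290, 653 to 743 and 1050 to 1290. Because the lowest value of each library was taken as 1 read, a recovered number of 0 could not occur. Whether every marker was detected in every library therefore cannot be told.

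The genes whose pattern was most like that of Igf2 over the 9 libraries were Dync2h1 (Pearson r = 0.981), Bag6 (0.979), Akap7 (0.974), Mgrn1 (0.974) and Fgf13 (0.972). This is a description, since these 9 points share their groups and scaling. Fgf13 fell from a mean log2 value of 7.05 in sham to 6.75 after day-7 TAC and 6.01 after day-1 TAC, and Bag6 from 7.36 to 7.29 and 7.15, so that genes with small and large differences had like patterns.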

How the data were processed

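Messenger RNA of the left ventricle was sequenced in 9 libraries, 3 per group, with 50-cycle single-end reads and ScriptSeq v2 libraries, per the labels' protocols. The submitters' processing notes list edgeR, STAR, Trim Galore and mm10 as tools and build; for versions, annotation, strand setting and pooling the sources used here give nothing. Deposited values are log2 values, which the authors scaled by TMM per the file headers. Out of the log, 100% of values per library were whole multiples of the lowest value (tolerance 0.001 reads), which was taken as 1 read; with a pseudocount of 1, each recovered number would be 1 too high. Of 16710 rows, 12 were left out because 3 symbols stood on several rows, leaving 16698 genes. A column name is shared by 2 sham columns, so sham replicates 2 and 3 are numbered as they stand in the header, for naming only.

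Genes above 0 in at least 3 libraries (13712) were fitted with limma 3.58.1 in R 4.3.3 with an intensity trend, with all 9 libraries in 1 linear model and a mean per group. Tests were two-sided, adjusted by Benjamini-Hochberg over all genes tested, and called under 0.05. Fold changes are differences of mean log2 values with SE, and ± is the SD over 3 libraries. Nothing in the labels ties libraries to different animals or litters; p-values then reflect only the spread among these libraries, which may be technical. Alternatives were other filters, a pseudocount of 1, other scalings, other variance models, a minimum fold of 1.2, and each library left out in turn.

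The members and lists were chosen with earlier results of these data known, so no list was tested. By the naming rule, every member in the table is named, with values per library where it was called in a comparison; from other lists, the called genes with the largest changes; and the 5 genes most correlated with Igf2 (mean of at least 2). Markers and neighbours were named for the results they stand beside. Coordinates and exon lengths are from GENCODE M21 (GRCm38, the build mm10), and promoters and microRNAs from RefSeq tables on GRCm38.p6, matched by symbol or position. No sequence of Impact was read.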

Additional observations from a re-analysis of the deposited data

Results flagged for a closer look

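11 members differed between the TAC groups, that is, their changes from the same sham libraries differed after day-1 and day-7 TAC by the limma test of that difference (adjusted p under 0.05 over all genes). Of the tested members 37% were lower and 3.7% higher after day-1 TAC, beside 10.3% and 6.42% over all genes. The values are log2 differences of day-1 TAC from day-7 TAC. The growth factor Igf2 was at -1.16, its neighbour H19 at -1.40 and the transcription factor gene Plagl1 at -1.71. Of the Peg3 domain, Peg3 was at -0.95 and Zim1 at -1.2. Dlk1 was at -1.58, from at most 44 reads in a library; it passed the filter only through the sham and day-7 TAC libraries, so its test is no support. Meg3 of the same domain was at -0.47. Igf2r was at -0.26, the transporter gene Slc38a4 at -0.65 and the neurabin gene Ppp1r9a at -0.49. Asb4 was at 0.89 and was the member with the opposite sign. With 3 libraries in a group, single outlying libraries were checked only by leaving out each library in turn. The calls of Igf2r, Dlk1, Zim1, Meg3 and Ppp1r9a were lost in 6, 5, 4, 3 and 1 of the 9 fits. That of Igf2r was also lost when scaled by linear total, upper quartile or the median of log ratios. Quantile normalization removed those of Igf2r and Meg3.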

How the results depend on the processing

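No call of a member reversed: of 688 alternative values of the 34 calls, 132 were no longer past the threshold, and 13 calls passed in every alternative. Of 947 alternative values of member differences that were not called in the main analysis, 59 changed sign without passing in either fit, and 9 passed (Cd81, Gnas, Kcnq1ot1, Mest and Igf2). Requiring a minimum fold change of 1.2 left 5 members called in day-1 TAC against sham, 3 in day-7 TAC against sham, and 5 when the operations were compared. Leaving out 1 library gave 8 to 13, 5 to 8 and 7 to 11 members called, in the same order. A fit of the 6 TAC libraries with the replicate block gave 9 members called. The labels do not say that equal numbers share a litter or day. Deviations from the group mean correlated at r = -0.22, -0.11 and -0.04 in same-numbered TAC libraries. These values are too few, and too dependent on each other, to settle whether the numbers pair the libraries. No paired analysis was possible for the comparisons with sham because 2 sham columns share a name.

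The median of paternally expressed members after day-1 TAC against sham (-0.22) was -0.18 without the filter and with 1 added to linear values, -0.17 scaled by the median of log ratios, -0.12 by linear total, -0.13 by upper quartile, and -0.28 to -0.14 leaving out 1 library. That of maternally expressed members (-0.21) was -0.27 over genes with a mean of at least 2, -0.17, -0.11 and -0.13 under the same 3 scalings, -0.15 after quantile normalization and without members imprinted in few tissues, and -0.32 to -0.13 leaving out 1 library. After day-7 TAC the paternal median (-0.13) was 0.07 without the filter, where Rtl1, Nnat and Rasgrf1 enter, and -0.18 to -0.02 leaving out 1 library. The maternal one (0.06) was 0.12 by linear total, 0.09 by upper quartile and by quantiles, and -0.01 to 0.11 leaving out 1 library. Between the TAC groups the paternal median (-0.29) was -0.31 to -0.18 leaving out 1 library. The maternal one (-0.16) was -0.23 over genes with a mean of at least 2, -0.11 by linear total and quantiles, -0.10 by upper quartile, and -0.20 to -0.09 leaving out 1 library. The cause of these shifts was not tested. Depth limits Dlk1, Rtl1, Nnat and Rasgrf1, with at most 44 reads per library.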
